A study of Rattus norvegicus with 6 samples.

Results

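Fatty acids are broken down by beta-oxidation in 2 organelles. Mitochondria import long-chain acyl groups through the carnitine shuttle and pass the electrons of each cycle to the respiratory chain. Peroxisomes shorten very long and branched chains, hand the products on, and destroy the hydrogen peroxide that their oxidases make. Peroxisomal enzymes are made in the cytosol and enter the organelle through a machinery of peroxins, the products of the Pex genes. Astrocytes carry out much of the fatty acid oxidation of the brain, and C6 is a rat glioma line with astrocytic features.

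The 62 genes described here were picked by symbol among the 12121 genes listed for this series. The rule took the acyl-CoA dehydrogenases, oxidases, thiolases, synthetases and thioesterases, the carnitine palmitoyltransferases, the hydratases, isomerases and reductases of the pathway, the electron transfer flavoprotein genes, the peroxins, Hsd17b4, Cat and Crot. No measured value entered the rule. Of these members, 25 were classed as mitochondrial and 25 as peroxisomal, the latter made up of 9 enzymes and 16 Pex genes. Another 3 act in both organelles and 9 act in the cytosol or on several membranes. The listed genes are those with an average TPM, a length-corrected measure of abundance, above 1 in the study, so a low member may be listed only because of the group in which it is higher.

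RNA was sequenced from 3 libraries of C6-AQP1 cells, which overexpress the water channel AQP1 from a vector with a CMV promoter and a GFP and puromycin cassette, and from 3 libraries of C6 control cells without the overexpression. In the study's other assays the control line was named after the vector, but for the sequenced libraries the sources say only control or C6, and they do not say whether the AQP1 cells were 1 clone or a pool. That the 3 libraries per group stem from separate cultures is stated nowhere, and the p-values therefore rest on the spread of the libraries, possibly technical. Library totals ranged from 19054251 to 52725877 expected counts, lowest in replicate 1 of each group. The members took 0.416% to 0.421% of the totals in C6-AQP1 and 0.394% to 0.396% in the controls. Aqp1 had 1052, 1064 and 1057 normalized CPM (counts scaled to a common library size with TMM factors) in the C6-AQP1 libraries and 347, 352 and 349 in the controls, and was thus higher in every C6-AQP1 library (log2 fold change 1.60, standard error 0.018, adjusted p = 5.8e-25 from edgeR). All 4 glial and C6 markers (Gfap, S100b, Vim, Nes) were listed, with a sum of 5469 to 5670 CPM in C6-AQP1 and 3744 to 3820 in the controls. None of the 4 markers of microglia and leukocytes, the 3 of endothelium or the 2 of adipocytes was listed. The oligodendrocyte markers reported here, Mog and Mbp, summed to 3.31 to 4.48 CPM in C6-AQP1 and 2.69 to 3.27 in the controls. Neuronal markers (2 of 3 listed) summed to 7.07 to 7.68 and 4.76 to 5.51 CPM, and Ttr, the 1 hepatocyte marker of 3 that was listed, stayed at or under 0.461 CPM. Transcripts of the mitochondrial genome took 3.68% to 3.90% of the counts in C6-AQP1 and 3.05% to 3.16% in the controls. The part of these shifts in the results below was not tested.

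The members moved both ways, at a share near that of all genes. At an adjusted p under 0.05 (quasi-likelihood test of edgeR, adjusted over all 12121 genes), 23 of the 62 members rose in C6-AQP1 cells, 25 fell and 14 did not pass. Over all genes, 81.5% passed this bar, 40.8% higher and 40.7% lower. Among the members 77.4% passed. A change above 2-fold was rarer: 5 of the 62 members (8.06%) rose by more and none fell by more, where 14.1% of all genes changed that much, 9.74% upwards and 4.35% downwards. In 49 members the values of the groups did not overlap, which held for 82.5% of all genes. In bulk RNA, a smaller number of cells that express a gene and a lower level in each cell cannot be told apart.

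Set side by side, mitochondrial and peroxisomal members gave like counts of rises and falls. Of the 25 mitochondrial members, 9 rose, 10 fell and 6 did not pass, and their median log2 fold change was -0.033. Of the 25 peroxisomal members, 9 rose, 9 fell and 7 did not pass, with a median of -0.0048, beside 0.0010 over all genes. The extremes were wider on the mitochondrial side, from -0.89 to 1.59 against -0.41 to 1.54. Within the peroxisomal class, 6 of the 9 enzymes rose and 2 fell (median 0.087). Of the 16 Pex genes, which serve protein import, membrane protein insertion and division, 3 rose and 7 fell (median -0.14). The difference between classes was not tested, because the members were chosen with results of these data known. Scaled by library totals alone, the medians were 0.021 for the mitochondrial and 0.049 for the peroxisomal members, beside 0.055 over all genes.

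**Figure D1:**
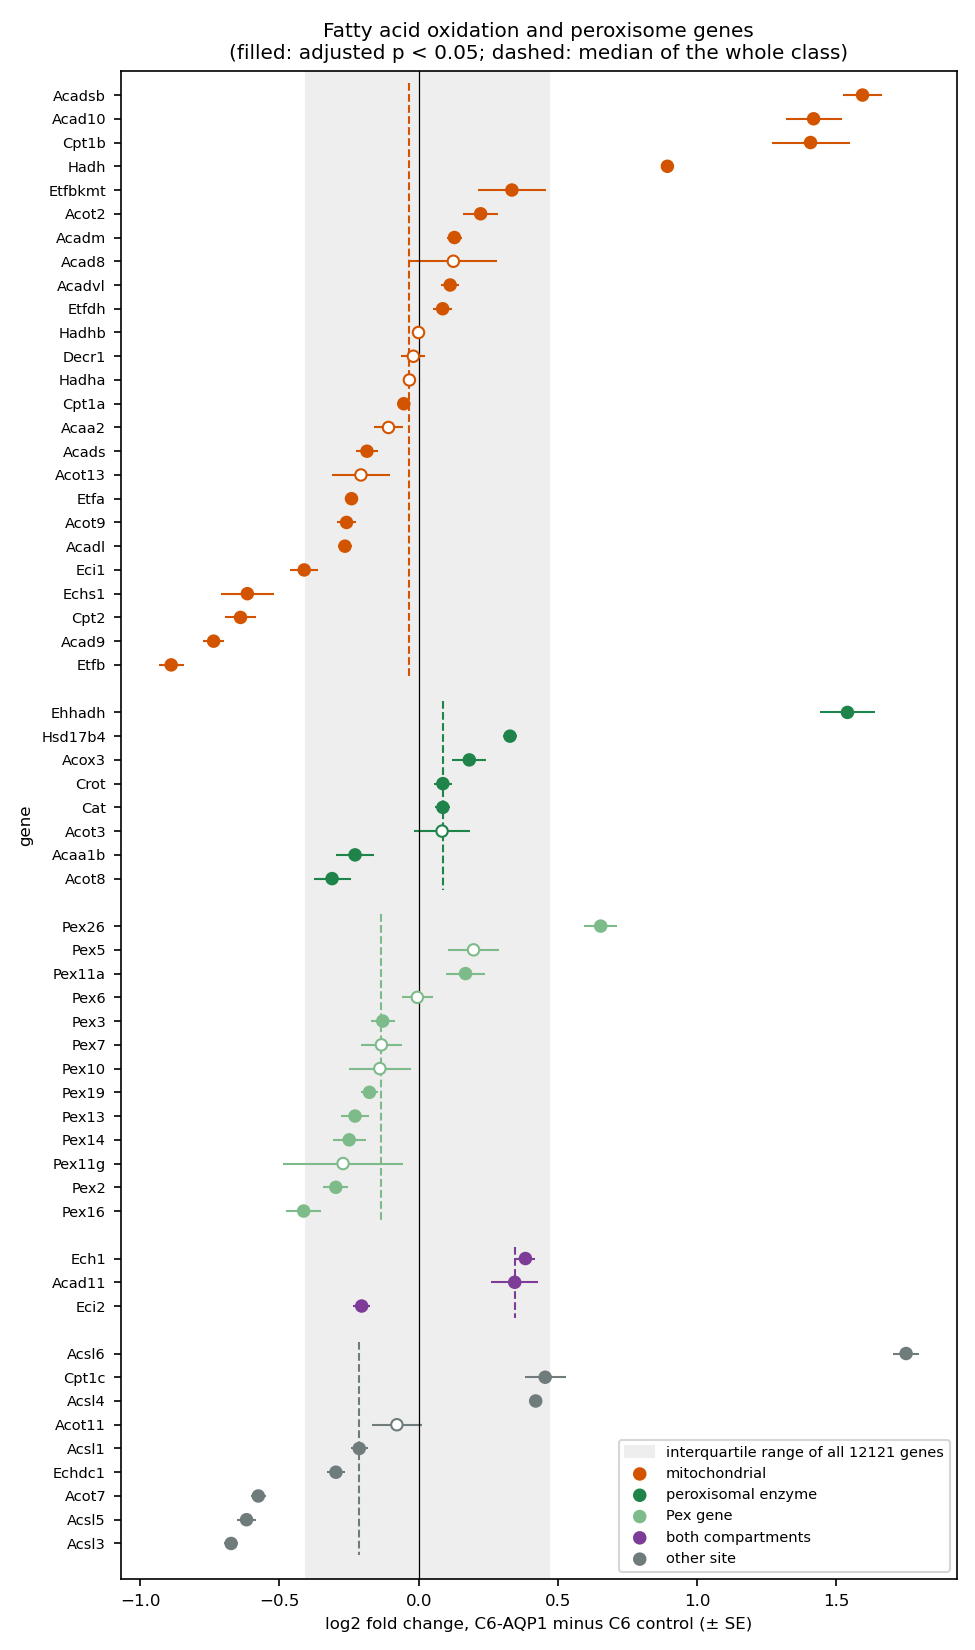
Log2 fold change of 58 of the 62 members (x axis, C6-AQP1 minus C6 control, with standard error), grouped by class and sorted from high to low. Filled points passed an adjusted p of 0.05, dashed lines are medians of the whole classes (-0.033 mitochondrial, 0.087 peroxisomal enzymes, -0.14 Pex genes), and the grey band is the interquartile range of all genes, from -0.40 to 0.47. Most members lie inside the band, and Acsl6, Acadsb, Ehhadh, Acad10 and Cpt1b stand out to the right.

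Summed over a class, the levels of the groups lay close together for the mitochondrial members and were higher in C6-AQP1 for the peroxisomal enzymes. The 25 mitochondrial members together held 1786, 1769.6 and 1774 CPM in the C6-AQP1 libraries and 1809, 1789 and 1790.3 in the controls. All 3 C6-AQP1 sums lay just under the lowest control, at a mean of 0.989 times the control mean, but 1.03 times it when library totals alone set the scale. The 9 peroxisomal enzymes summed to 594, 590.1 and 586 CPM in C6-AQP1 and to 517, 525 and 522 in the controls, a mean 1.13 times as high, and 1.18 times with library totals alone. The 16 Pex genes summed to 400.5, 408 and 399 CPM and to 409, 411 and 404, so their groups overlapped. Free of the scaling, the mitochondrial sum was 3.01 ± 0.0153 times that of the peroxisomal enzymes in C6-AQP1 and 3.45 ± 0.0495 times in the controls (SD, n = 3). These sums follow the abundant members, led by Hadhb with 15.2% of the mitochondrial sum in the controls, and they were not corrected for gene length.

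**Figure D2:**
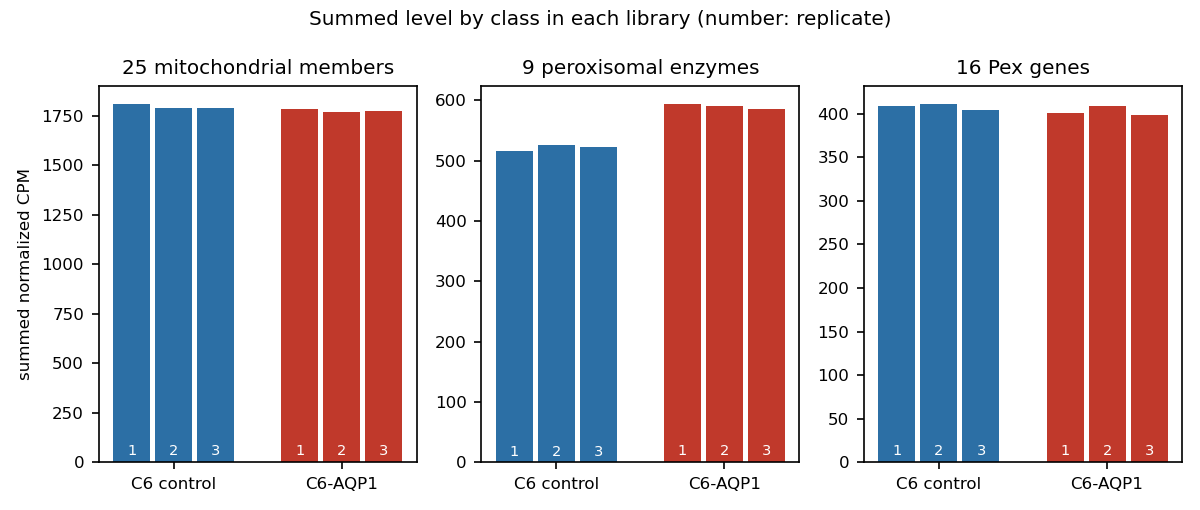
Summed normalized CPM (y axis, from 0) of the mitochondrial members, the peroxisomal enzymes and the Pex genes in each library, with the replicate number in each bar. The bars of the peroxisomal enzymes are higher in all 3 C6-AQP1 libraries (586 to 594) than in the controls (517 to 525), while the other panels show near-equal heights.

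Of the 5 members that rose more than 2-fold, 3 are mitochondrial, 1 is peroxisomal and 1 is an acyl-CoA synthetase. Acadsb, the short/branched-chain acyl-CoA dehydrogenase that also acts in isoleucine breakdown, had 26.4, 24.6 and 23.8 CPM in the C6-AQP1 libraries and 9.06, 8.18 and 7.71 in the controls. That was a 3.02-fold rise (log2 fold change 1.59, standard error 0.070, adjusted p = 4.5e-15 from edgeR), above the change of 95.3% of all genes. Acad10, a mitochondrial member of the same family, had 8.96, 8.74 and 8.60 CPM against 3.23, 3.19 and 3.38 in the controls (log2 fold change 1.42, standard error 0.10, adjusted p = 2.3e-11 from edgeR). Both dehydrogenases had C6-AQP1 libraries far above every control. Cpt1b, the muscle type of the outer-membrane enzyme that loads acyl groups onto carnitine, was low, with 4.46, 4.75 and 4.85 CPM in C6-AQP1 and 1.53, 1.82 and 1.88 in the controls. Its log2 fold change was 1.41 (standard error 0.14, adjusted p = 6.4e-09 from edgeR), and its counts were not whole numbers, so its reads were in part divided with another gene.

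Ehhadh, the peroxisomal bifunctional enzyme that hydrates and dehydrogenates acyl-CoA, had 10.8, 9.83 and 9.88 CPM in the C6-AQP1 libraries and 3.54, 3.33 and 3.58 in the controls, a 2.91-fold rise (log2 fold change 1.54, standard error 0.10, adjusted p = 3.7e-12 from edgeR). Acsl6, a synthetase prominent in brain that activates long-chain and polyunsaturated fatty acids, went from 17.5, 20.7 and 20.0 CPM in the controls to 67.6, 65.9 and 65.9. It had the largest log2 fold change of the members, 1.75 (standard error 0.046, adjusted p = 7.0e-19 from edgeR). All 5 of these genes kept their call under each of the 14 alternatives tried.

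**Figure D3:**
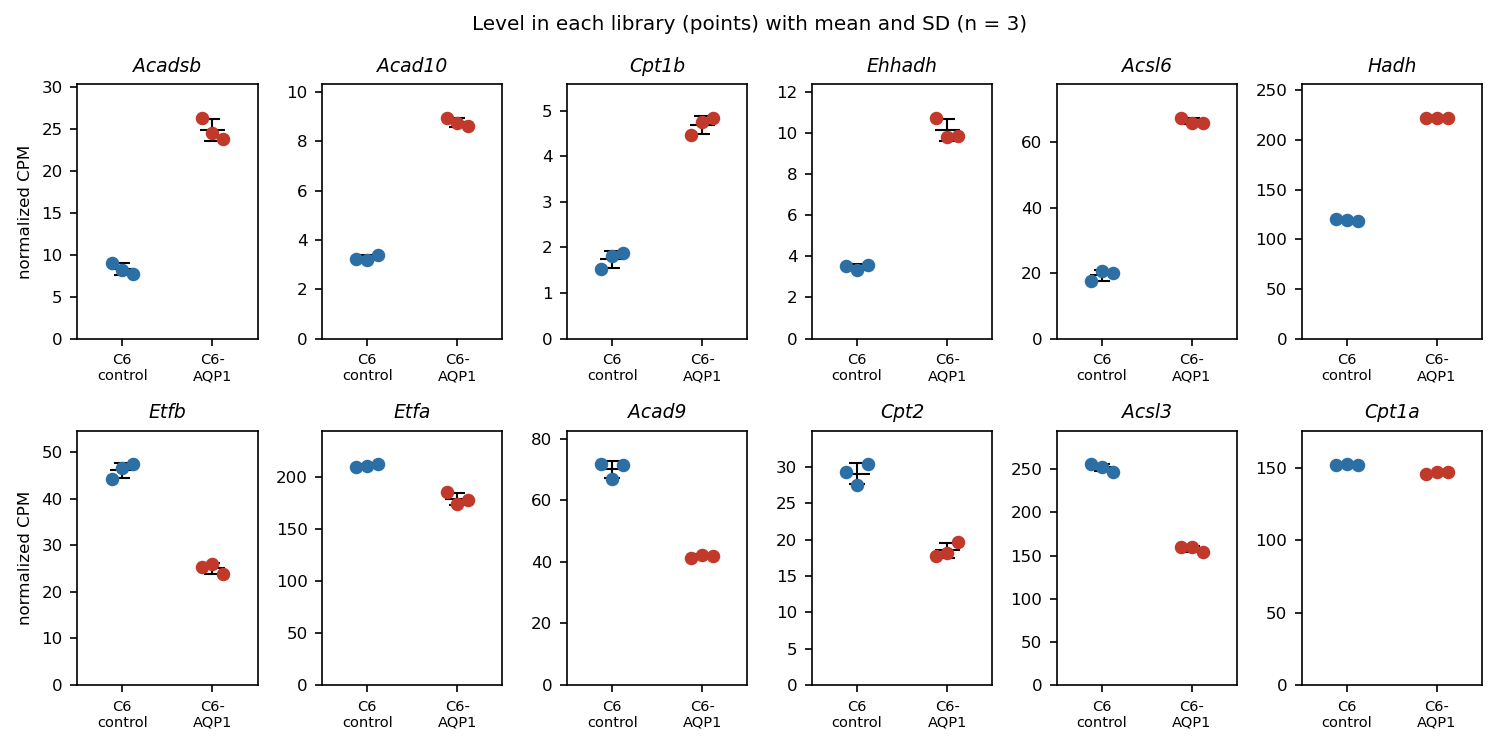
Normalized CPM (y axes, each from 0) of 12 members in every library, with black bars for the mean and SD of the group (n = 3). The upper row shows genes whose C6-AQP1 libraries all lie above the controls, and the lower row shows genes whose C6-AQP1 libraries all lie below them, with Cpt1a the least apart.

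Promoters are shown for the members above 2-fold, since these moved in the same direction. Of the 62 members, 49 had an entry in the RefSeq table of the GRCr8 build, and Cpt1b is among the 13 without one. Each line gives the 150 bases just before the annotated start, 5′ to 3′ on the strand of the gene, with GGGCGG or its reverse complement (a GC box) in capitals. Acadsb lies at chr1:195619066-195619215, Acad10 at chr12:40561765-40561914, Acsl6 at chr10:38952011-38952160 and Ehhadh at chr11:92746259-92746408, all on the plus strand.
Acadsb: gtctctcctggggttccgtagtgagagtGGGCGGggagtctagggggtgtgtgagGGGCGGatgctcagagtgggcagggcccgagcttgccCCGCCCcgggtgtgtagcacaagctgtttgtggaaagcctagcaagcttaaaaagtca
Acad10: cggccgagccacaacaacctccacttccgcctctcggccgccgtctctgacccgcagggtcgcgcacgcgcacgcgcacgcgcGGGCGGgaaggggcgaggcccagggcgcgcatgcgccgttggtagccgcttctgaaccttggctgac
Ehhadh: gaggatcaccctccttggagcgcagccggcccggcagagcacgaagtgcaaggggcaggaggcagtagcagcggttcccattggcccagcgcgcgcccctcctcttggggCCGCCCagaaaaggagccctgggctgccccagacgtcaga
Acsl6: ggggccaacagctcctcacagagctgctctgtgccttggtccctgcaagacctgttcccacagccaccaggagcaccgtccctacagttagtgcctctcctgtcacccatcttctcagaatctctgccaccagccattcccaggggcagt
These stretches had a GC content of 61.3% for Acadsb, 73.3% for Acad10, 69.3% for Ehhadh and 60.0% for Acsl6, and Acadsb held 3 GC boxes. The GC box counted for Acsl6 in the wider window below lies further upstream. Searched on both strands over 250 bases before the start, GGGCGG occurred in 35 of the 49 member promoters (71.4%), in 30.5% of all 33469 promoters and in 61.2% of the 8636 promoters whose symbol is among the listed genes. AGGTCA, the core element bound by nuclear receptors such as PPAR with RXR, occurred in 8 of 49 (16.3%), in 14.1% of all promoters and in 9.70% of those of listed genes. The members holding it were Acad11, Acadvl, Acot8, Cat, Echs1, Eci1, Hsd17b4 and Pex11g, and none of the members above 2-fold was among them. A direct repeat of 2 exact copies of AGGTCA spaced by 1 base, which also counts under AGGTCA, was in 0 of the 49 windows and in 0.0508% of all promoters. CCAAT was in 32.7% of the member windows, 34.0% of all and 36.5% of those of listed genes. CACGTG was in 2.04%, 5.59% and 8.27% in the same order, and TATAAA in 10.2%, 12.9% and 5.95%. A match of letters describes the window and is no evidence of binding.

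Along the mitochondrial route, the entry steps differed in direction. Cpt1a, the widely expressed outer-membrane transferase, had 145, 147 and 147 CPM in C6-AQP1 and 152, 152 and 151 in the controls. The groups did not overlap, yet the difference was small (log2 fold change -0.053, adjusted p = 0.040 from edgeR) and it lost its call under 11 of the 14 alternatives, with library totals alone turning its sign (0.00064). Cpt2, the inner-membrane partner that returns the acyl group to CoA, fell from 29.3, 27.5 and 30.4 to 17.7, 18.1 and 19.7 CPM, to 0.642 times the control level (log2 fold change -0.64, standard error 0.056, adjusted p = 8.7e-10 from edgeR). Cpt1c, a brain-type relative that resides in the endoplasmic reticulum and is counted outside both organelles, rose from 9.60, 10.1 and 10.5 to 14.3, 12.8 and 14.5 CPM (log2 fold change 0.45).

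The acyl-CoA dehydrogenases carry out the first oxidation and differ in the chain length they accept. Of the 8 mitochondrial ones 4 rose, 3 fell and 1 did not pass, where 40.8% of all genes rose and 40.7% fell. Acadvl, for very long chains, had 71.4, 68.3 and 67.6 CPM in C6-AQP1 and 64.9, 63.3 and 63.2 in the controls, a log2 fold change of 0.11 (adjusted p = 0.0030 from edgeR). Acadm, for medium chains, had 94.3, 94.1 and 93.0 CPM in C6-AQP1 and 86.2, 86.8 and 84.4 in the controls, a log2 fold change of 0.13 (adjusted p = 2.5e-04). Both thus lay slightly higher in every C6-AQP1 library. Acadl, for long chains, and Acads, for short chains, fell, with log2 fold changes of -0.26 and -0.19. The larger fall was that of Acad9, which also assists the assembly of respiratory complex I: 41.1, 42.3 and 42.0 CPM in C6-AQP1 stood against 71.7, 66.9 and 71.4 in the controls (log2 fold change -0.74, standard error 0.037, adjusted p = 4.6e-14 from edgeR). Acad8, of valine breakdown, did not pass (log2 fold change 0.12, adjusted p = 0.46).

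In the later steps of the mitochondrial cycle, Hadha and Hadhb, the subunits of the trifunctional protein for long chains, differed little between groups. Hadha had 235, 240.5 and 237 CPM in C6-AQP1 and 241, 247 and 241 in the controls (log2 fold change -0.033, standard error 0.022, adjusted p = 0.16 from edgeR). For Hadhb the libraries held 277, 271 and 269 CPM in C6-AQP1 and 277, 271 and 270.2 in the controls, a log2 fold change of -0.00054 with a standard error of 0.021 (adjusted p = 0.98), and scaling by library totals alone made it a small rise of 0.054. Neither subunit passed the test, and the Hadhb groups overlapped. Hadh, the dehydrogenase for short and medium chains, rose by contrast: 222, 222 and 222 CPM in the C6-AQP1 libraries lay above 121, 119.6 and 119 in the controls, a 1.86-fold difference (log2 fold change 0.89, standard error 0.023, adjusted p = 3.6e-19 from edgeR). Echs1, the short-chain hydratase, fell, with 23.3, 21.8 and 23.6 CPM in C6-AQP1 and 41.1, 32.9 and 32.6 in the controls, where replicate 1 stood above the other controls (log2 fold change -0.62, and between -0.66 and -0.52 over the alternatives). Its counts were divided with another gene. Acaa2, the thiolase that closes the cycle, had 21.0, 20.9 and 21.0 CPM in C6-AQP1 and 23.5, 21.98 and 22.6 in the controls and did not pass (adjusted p = 0.063). Of the auxiliary enzymes for unsaturated chains, the isomerase Eci1 fell (log2 fold change -0.41) and the reductase Decr1 did not pass (-0.019, adjusted p = 0.68).

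Electrons from the dehydrogenases pass to the electron transfer flavoprotein, a dimer of Etfa and Etfb, and then to Etfdh in the inner membrane. Etfb had the largest fall of all 62 members: 25.2, 26.0 and 23.7 CPM in C6-AQP1 and 44.3, 46.5 and 47.4 in the controls, to 0.540 times the control level (log2 fold change -0.89, standard error 0.045, adjusted p = 6.3e-14 from edgeR). Only 6.81% of all genes had a lower value. Etfa, its partner, fell less, from 209.9, 211 and 212 to 185, 174 and 177 CPM (log2 fold change -0.24). Etfdh had 77.6, 77.6 and 79.1 CPM in C6-AQP1 and 78.1, 73.9 and 70.1 in the controls, with groups that overlapped (log2 fold change 0.086, adjusted p = 0.028), and it lost its call with DESeq2 and without C6-AQP1 replicate 2, C6-AQP1 replicate 3 or control replicate 3. Etfbkmt, which methylates the beta subunit, passed at a low level (log2 fold change 0.33, adjusted p = 0.016) but not without replicate 1 of C6-AQP1 (0.25, adjusted p = 0.064), of the controls (0.28, adjusted p = 0.050) or of both (0.20, adjusted p = 0.15). The mitochondrial thioesterases Acot2, Acot13 and Acot9 had log2 fold changes of 0.22, -0.21 and -0.26, of which that of Acot13 did not pass (adjusted p = 0.068).

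Among the peroxisomal enzymes that rose, Hsd17b4, Crot, Cat and Acox3 did so by far less than Ehhadh. Hsd17b4, the other bifunctional enzyme, which also serves branched chains and bile acid precursors, had 154, 149 and 151 CPM against 120.3, 121 and 120.2 (log2 fold change 0.33, adjusted p = 5.4e-11 from edgeR). All C6-AQP1 libraries exceeded all controls. Crot, which forms carnitine esters of the shortened chains for export, had 97.7, 96.4 and 93.3 CPM in C6-AQP1 and 86.8, 93.7 and 88.8 in the controls, a log2 fold change of 0.087 (adjusted p = 0.016) with groups that overlapped, and it lost its call without C6-AQP1 replicate 2 or control replicate 1, or without both replicate 1 libraries. Cat, the catalase that removes hydrogen peroxide, had 123, 128 and 124 CPM in C6-AQP1 and 115, 118 and 119 in the controls (log2 fold change 0.087, adjusted p = 0.0053). Acox3, an oxidase for branched chains, had a log2 fold change of 0.18.

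The peroxisomal enzymes that fell were a thiolase and a thioesterase. Acaa1b, a thiolase of the last step, had 13.3, 12.7 and 12.3 CPM in C6-AQP1 and 13.9, 14.9 and 15.6 in the controls (log2 fold change -0.23, adjusted p = 0.0038 from edgeR). Acot8, which releases free acids inside the peroxisome, had 12.7, 15.1 and 14.1 CPM in C6-AQP1 and 17.5, 17.2 and 17.8 in the controls (log2 fold change -0.31, adjusted p = 2.2e-04). Both lay below all controls in every C6-AQP1 library. Acot3 did not pass (0.084, adjusted p = 0.45). The counts of Acot8 were in part not whole numbers.

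Among the peroxins that rose was a part of the complex that pulls the import receptor back out of the membrane. Pex26, the anchor of the complex in the peroxisomal membrane, had 25.4, 23.8 and 26.0 CPM in C6-AQP1 and 14.9, 16.1 and 16.4 in the controls (log2 fold change 0.65, standard error 0.058, adjusted p = 1.1e-09 from edgeR). Its groups were clearly separate, unlike those of Pex6, an ATPase of this complex, which did not pass (-0.0048, standard error 0.055, adjusted p = 0.94). Pex5, the receptor for the main targeting signal, had 17.8, 22.9 and 23.3 CPM in C6-AQP1 and 20.3, 19.1 and 17.7 in the controls, with C6-AQP1 replicate 1 below the other 2 and inside the control range. It did not pass over all libraries (log2 fold change 0.20, adjusted p = 0.072), but did without that library (0.29, adjusted p = 4.1e-05), without control replicate 1 (0.24, adjusted p = 0.048), and with library totals, upper-quartile factors, limma-voom or a filter at 50 counts. Pex7, the receptor for the other targeting signal, did not pass (-0.13, adjusted p = 0.099).

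The falls among the peroxins spread over docking, the ubiquitin ligase ring and membrane insertion, among other steps. Pex14, a docking protein for loaded receptors, had 20.0, 23.9 and 21.3 CPM in C6-AQP1 and 26.7, 26.6 and 25.2 in the controls (log2 fold change -0.25, adjusted p = 5.7e-04 from edgeR). Its partner Pex13 fell by a similar amount (log2 fold change -0.23). In the ubiquitin ligase ring, Pex2 fell, with 32.6, 31.8 and 28.9 CPM against 38.0, 38.2 and 37.8 in the controls (log2 fold change -0.30), while Pex10 did not pass (-0.14, adjusted p = 0.25). The 3 genes of membrane protein insertion, Pex3, Pex16 and Pex19, all fell, where 40.7% of all genes fell. Their log2 fold changes were -0.13, -0.41 and -0.18. Pex16 had the lowest log2 fold change of the peroxins (adjusted p = 3.6e-06 from edgeR), with 12.5, 13.0 and 13.8 CPM in C6-AQP1 and 17.0, 17.6 and 17.9 in the controls. Pex3 lost its call with library totals, with upper-quartile factors and without control replicate 2. Pex11a, an inducible gene of peroxisome division, rose, with 15.01, 15.8 and 14.2 CPM in C6-AQP1 and 14.4, 13.5 and 12.5 in the controls with overlapping groups (log2 fold change 0.17, adjusted p = 0.033), a call lost with DESeq2 and without C6-AQP1 replicate 2, control replicate 2 or control replicate 3. Pex11g was the scarcest member in counts and did not pass (-0.27, adjusted p = 0.25).

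The members that act in both organelles also went both ways. Ech1, an isomerase for unsaturated chains, had 67.6, 68.8 and 68.9 CPM in C6-AQP1 and 53.1, 53.7 and 50.9 in the controls (log2 fold change 0.38, adjusted p = 6.8e-10 from edgeR). Acad11, a further acyl-CoA dehydrogenase, had 9.63, 9.74 and 11.1 CPM in C6-AQP1 and 8.57, 8.02 and 7.65 in the controls (log2 fold change 0.35, adjusted p = 7.7e-04). Eci2, a further isomerase, had 83.7, 83.8 and 79.1 CPM in C6-AQP1 and 95.8, 94.1 and 94.2 in the controls (log2 fold change -0.20, adjusted p = 2.2e-06). The first 2 lay higher in all C6-AQP1 libraries and the last lower in all of them.

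Acyl-CoA synthetases activate fatty acids before either organelle can use them. All 5 passed the test, 2 upwards and 3 downwards, where 81.5% of all genes passed. Acsl4, which prefers arachidonic acid, rose from 476, 481 and 479 to 631, 636 and 654 CPM (log2 fold change 0.42, standard error 0.019, adjusted p = 9.5e-15 from edgeR). Acsl3, an enzyme of the endoplasmic reticulum and lipid droplets, fell from 256, 253 and 247 to 160.2, 160.1 and 154 CPM (log2 fold change -0.67, standard error 0.024, adjusted p = 1.1e-16). Acsl5, found on mitochondria and the endoplasmic reticulum, went from 76.2, 76.4 and 73.6 to 51.3, 48.6 and 48.1 CPM (log2 fold change -0.62). Thus Acsl6 and Acsl4 were higher in every C6-AQP1 library, and Acsl3, Acsl5 and Acsl1 (-0.21) lower. Acot7, a cytosolic thioesterase abundant in brain that undoes this activation, went from 128, 128 and 127 to 83.8, 86.5 and 86.6 CPM (log2 fold change -0.58, adjusted p = 1.2e-14). Echdc1, a cytosolic proofreading decarboxylase, fell (log2 fold change -0.30), and Acot11 did not pass (-0.078).

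Partners within a complex or step were also compared as a ratio within each library, for 11 pairs chosen after their values were seen. A ratio of this kind is not corrected for length, so only its shift between groups is read. The exact permutation test of 3 libraries against 3, two-sided, cannot go below p = 0.10. The 8 pairs that reached this value stood at 0.14 after Benjamini-Hochberg adjustment over the 11 pairs. The log2 ratio of Etfb to Etfa shifted by -0.64 (from -2.20 ± 0.043 to -2.84 ± 0.085, SD, n = 3, exact permutation p = 0.10). The shift was -0.60 for Cpt2 to Cpt1a and -1.09 for Acsl3 to Acsl4, both lower in all C6-AQP1 libraries. Ratios higher in all C6-AQP1 libraries included Hadh to Hadha (0.93), Ehhadh to Hsd17b4 (1.21), Pex26 to Pex6 (0.66) and Cpt1b to Cpt1a (1.49), each again at the smallest exact permutation p, 0.10. For other partners the shift was within the spread of the libraries, at -0.033 for Hadha to Hadhb (exact permutation p = 0.40) and -0.031 for Pex14 to Pex13 (exact permutation p = 0.90). The groups did not overlap in 8 of the 11 pairs, and for genes taken singly this held for 82.5% of all genes. Since the pairs were picked on their values, this count adds no evidence to the fold changes of the single genes.

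**Figure D4:**
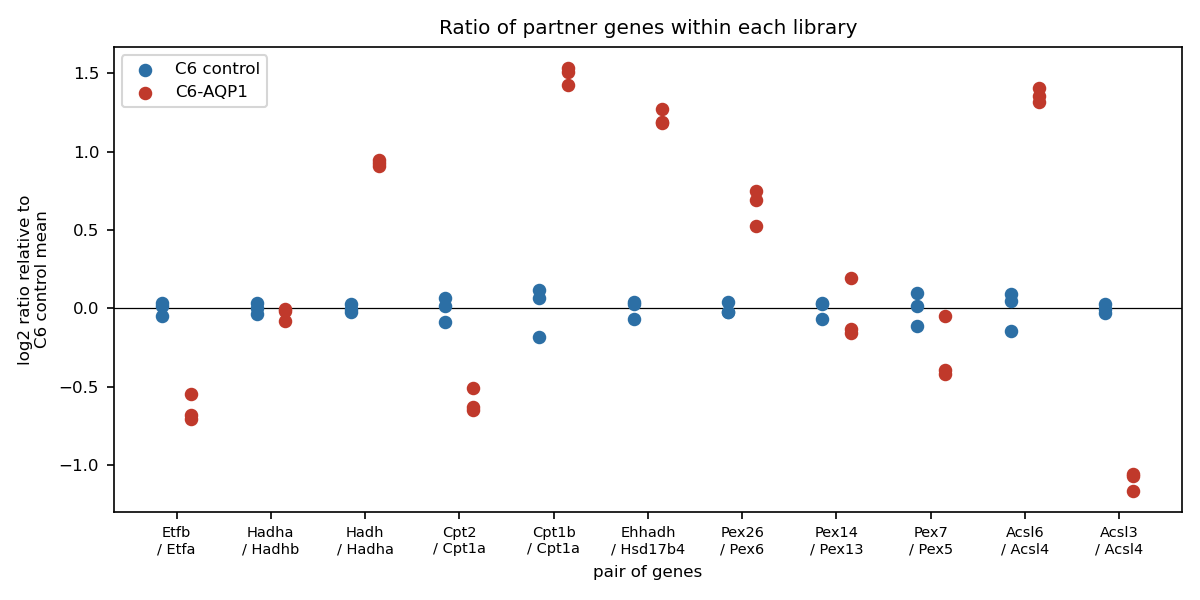
Log2 ratio of the first gene to the second in each library (y axis), relative to the mean of the C6 control libraries, for 11 pairs of partners (x axis). Blue points are C6 control and red points C6-AQP1 libraries. Hadha/Hadhb stays near 0, while the mean shift is -0.64 for Etfb/Etfa and 1.21 for Ehhadh/Hsd17b4.

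Other genes of these pathways, from a list of 47 listed genes of carnitine transport, ketone metabolism, transcriptional control and further peroxisomal functions, gave 18 rises, 18 falls and 11 that did not pass, with a median log2 fold change of 0.0067. The share that passed was 76.6%, beside 81.5% of all genes. Above 2-fold, 3 rose and 2 fell, which is 10.6% of the list beside 14.1% of all genes. Ppara, the nuclear receptor that controls many oxidation genes, went from 1.80 ± 0.275 to 3.89 ± 0.445 CPM (SD, n = 3), which is 1.10 on the log2 scale (adjusted p = 1.8e-06 from edgeR). Ppargc1b, a coactivator of mitochondrial genes, went from 3.32 ± 0.497 to 12.4 ± 0.859 CPM (log2 fold change 1.87, adjusted p = 4.2e-13). Pparg and Esrra, further nuclear receptors of the list, fell (log2 fold change -0.34 for both, edgeR adjusted p = 8.0e-04 and 3.9e-08). Ppard and Rxra rose (log2 fold changes 0.26 and 0.95). Prdx5, a peroxiredoxin of mitochondria and peroxisomes, fell from 323 ± 6.48 to 127 ± 3.44 CPM (log2 fold change -1.34, adjusted p = 1.4e-21). Mff, a receptor for the fission machinery of both organelles, had 0.256, 1.79 and 1.49 CPM in C6-AQP1 and 6.19, 5.37 and 4.50 in the controls (log2 fold change -2.00, standard error 0.46, adjusted p = 0.012).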

How the data were processed

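RNA-seq libraries of 3 C6-AQP1 and 3 C6 control samples were analysed, grouped by their labels. The authors trimmed reads (Trimmomatic 0.36), aligned them with STAR 2.5.1b to rn6 and deposited expected counts from RSEM 1.2.29 for genes with an average TPM above 1. Reads are 100-nucleotide single reads per the labels and paired-end per the study's methods. RSEM divides reads among similar genes, which left non-whole values (off a whole number by more than 1e-06) in 9 of the 62 members (among them Cpt1b, Acot2, Echs1, Acot11, Acot8, Pex5, Pex19 and Pex13). A cDNA amplification step preceded library construction.

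Counts were rounded and fitted over all 12121 genes with edgeR 4.0.16 (TMM, robust quasi-likelihood, Benjamini-Hochberg) in R 4.3.3. The test was also run on simulated counts with known changes in a small share of the genes. That run does not check it under changes as wide as those found here. Named with values in every library were members above 2-fold, the 3 largest rises and falls that passed in each class, and 16 set genes. Members, classes and lists were chosen with earlier results of these data known. Alternatives were DESeq2 1.42.0, voom of limma 3.58.1, other scalings, a filter at 50 counts, a replicate block and leaving out libraries or, for sums, the most abundant member. Promoters came from a RefSeq table of GRCr8, matched by symbol, and no rn6 coordinate was used. A few genes are not reported here by name, and the counts and sums of a class include them.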

Additional observations from a re-analysis of the deposited data

How the results depend on the processing

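Of the 62 members, 53 stayed on their side of the threshold under the 14 alternatives, except that the filter at 50 counts left out Pex11g. Of these, the 42 that passed kept their direction, and of the 11 that did not pass, 4 (Hadha, Decr1, Pex6 and Acot11) changed sign under an alternative. Among the 9 others were Cpt1a, Hadhb, Pex5, Pex3, Etfdh, Pex11a, Etfbkmt and Crot. With library totals alone, the log2 fold change of Hadhb became 0.054 (edgeR adjusted p = 0.026) and that of Cpt1a 0.00064. The same scaling moved the median of all genes to 0.055 and those of the mitochondrial members to 0.021, all peroxisomal members to 0.049, the peroxisomal enzymes to 0.14 and the Pex genes to -0.083. It also moved the summed level in C6-AQP1 over control to 1.03 for mitochondrial, 1.11 for all peroxisomal, 1.18 for peroxisomal enzymes and 1.02 for Pex genes, as its construction sets. Without the most abundant member the last 3 sums stood at 1.05, 1.12 and 1.02. The filter at 50 counts gave a peroxisomal median of 0.057, and leaving out 1 library gave medians of -0.048 to 0.042. The counts of members that rose, fell or passed 2-fold stayed within 1.5 times under every alternative.

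Whether replicate numbers pair the samples was not settled: correlations of deviations from the group means were 0.21, -0.026 and 0.13 for numbers 1, 2 and 3. Unlike numbers gave -0.22 to 0.16, and replicate 1 had the lowest library total in each group. With the number as a replicate block, 9982 genes passed in place of 9878, the peroxisomal median was -0.0053 and no call of a member changed. Depth limits scarce members such as Pex11g (0.871 to 1.80 CPM).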
